A study of Homo sapiens with 28 samples.

Results

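The ONECUT family (ONECUT1, ONECUT2 and ONECUT3) and 5 factors known from the same endodermal programme (HNF4A, HNF4G, FOXA2, FOXA3 and PROX1) were followed through RNA-Seq of prostate cancer cells in which ONECUT2 was silenced or overexpressed. These 8 genes were chosen by their symbols, out of 19662 gene symbols in each of the tables of the 2 cell lines, with earlier results of these data known. The question was how much of each factor the lines hold, and how each responded to ONECUT2 and to low oxygen. PC3 is a prostate cancer line that does not make the luminal marker KLK3, and LNCaP is a luminal prostate adenocarcinoma line.

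There were 16 RNA-Seq libraries, 8 per line, in 4 groups of 2. PC3 cells received a control siRNA (siCtrl) or an siRNA against ONECUT2 (siOC2), and LNCaP cells received an empty vector (EV) or a vector for Flag-tagged ONECUT2 (OC2), each under normoxic conditions or in hypoxia at 0.2% oxygen. Within each siOC2 group, the libraries came from different siRNAs (siRNA1 and siRNA2), so their spread includes the difference between siRNAs. The labels do not say whether libraries came from separate cultures, so a p-value measures the spread between these libraries. ONECUT2 has no value in the 4 OC2 libraries, and the overexpression was therefore not checked here on its own gene. Each line is 1 cell line, and a level is that of the whole culture, in which fewer expressing cells and less RNA per cell cannot be told apart.

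ONECUT proteins bind DNA with a cut domain and a homeodomain. ONECUT1, also called HNF6, works in liver, biliary and pancreatic development, and ONECUT2 and ONECUT3 are its paralogs, both also known from neurons. HNF4A and HNF4G are nuclear receptors of liver, gut and kidney. FOXA2 and FOXA3 are pioneer factors that open chromatin in endoderm-derived tissues, and PROX1 is a homeodomain factor of liver, lymphatic endothelium and neural progenitors.

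The ONECUT genes are similar enough for their coding sequences to be shown side by side, since a vector carrying ONECUT2 was read against all 3 genes. The longest run of bases shared by the coding sequences of ONECUT2 and ONECUT3 was 32 bases, that of ONECUT2 and ONECUT1 was 23 bases, and that of ONECUT1 and ONECUT3 was 26 bases. Of the 1488 words of 25 bases in the ONECUT2 coding sequence, 15 (1.01%) also occur in ONECUT3 and 0 in ONECUT1. Printed are 120 coding bases around the longest run shared by ONECUT2 and ONECUT3, each inside a single coding exon, from GRCh37 with GENCODE gene models, at chr18:55103478-55103597 (plus strand) for ONECUT2, chr15:53081571-53081690 (minus strand) for ONECUT1 and chr19:1754110-1754229 (plus strand) for ONECUT3. Capitals mark bases that differ from ONECUT2 at the same position, without gaps.
ONECUT2: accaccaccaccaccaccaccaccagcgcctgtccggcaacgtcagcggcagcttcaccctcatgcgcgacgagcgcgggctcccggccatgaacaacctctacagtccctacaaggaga
ONECUT1: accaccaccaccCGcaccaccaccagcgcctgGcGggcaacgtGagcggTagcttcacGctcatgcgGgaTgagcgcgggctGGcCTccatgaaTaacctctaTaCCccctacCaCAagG
ONECUT3: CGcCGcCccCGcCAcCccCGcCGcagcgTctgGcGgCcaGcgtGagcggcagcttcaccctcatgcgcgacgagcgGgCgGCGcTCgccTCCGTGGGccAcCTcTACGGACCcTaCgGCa
Position by position in this window, 99 of the 120 bases of ONECUT1, and 70 of those of ONECUT3, were the same as in ONECUT2. Gaps were not allowed, so bases that would line up with a gap can be printed as capitals. ONECUT1 was placed by its best match over the window and ONECUT3 by the shared run. The counts therefore do not rank these genes by similarity to ONECUT2. How many reads the authors' counting could place in a wrong ONECUT gene was not tested.

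The lines held different sets of these factors, on the scale of RPKM (reads scaled to transcript length and library size), which is per length. In PC3, HNF4G (1.72 to 7.75 RPKM over the 8 libraries) and FOXA2 (2.69 to 9.57 RPKM) had the highest levels, followed by PROX1 (0.859 to 4.07 RPKM), ONECUT3 (0.625 to 2.65 RPKM) and ONECUT2 (0.125 to 1.77 RPKM), and these ranges overlap between neighbours in that order. ONECUT1 (0.0378 to 0.535 RPKM), FOXA3 (0 to 0.419 RPKM) and HNF4A (0 to 0.0856 RPKM) were below 1 RPKM in each of the 8 PC3 libraries. In LNCaP, ONECUT2 had 2.89 to 11.5 RPKM in the 4 EV libraries, and HNF4G had 0.505 to 3.05 RPKM over the 8 libraries.

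The other 6 factors stayed below 1 RPKM in LNCaP. ONECUT1 reached 0.302 RPKM, FOXA3 0.273 RPKM, PROX1 0.191 RPKM, ONECUT3 0.162 RPKM and HNF4A 0.0656 RPKM at most. FOXA2 was at 0 in 5 of the 8 libraries and at most at 0.0192 RPKM. The tables of the lines were made separately, so these levels are set side by side without a test.

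**Figure D1:**
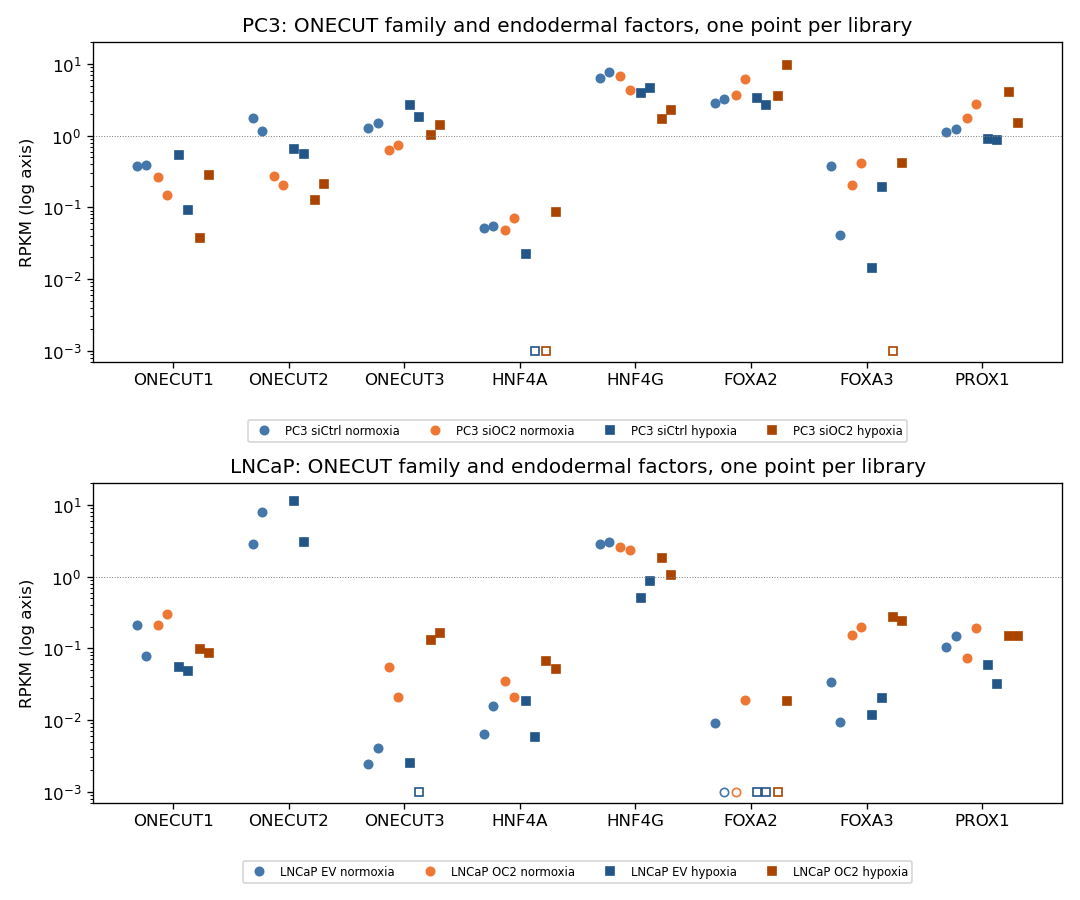
RPKM (log axis) of the 8 genes in each PC3 library (top) and LNCaP library (bottom), 1 point per library, coloured by group; hollow points stand for libraries at 0 and are drawn at the bottom, ONECUT2 has no value in the OC2 libraries, and the dotted line is 1 RPKM. FOXA2 lies at 2.69 to 9.57 RPKM in PC3 and at 0 to 0.0192 RPKM in LNCaP.

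The labels of the lines were checked on marker genes. The summed level of 4 LNCaP markers (KLK3, KLK2, TMPRSS2 and FOLH1) was 0.319 to 5.59 RPKM in PC3, where KLK3 was at 0 in all 8 libraries, and at least 2720 RPKM in LNCaP. The summed level of 6 PC3 markers (VIM, CAV1, CD44, ANXA1, PLAU and AXL) was at least 622 RPKM in PC3 and at most 60.9 RPKM in LNCaP. Among them only VIM overlapped between the lines (30.2 to 353 RPKM in PC3 and 23.6 to 58.2 RPKM in LNCaP). Of 6 genes known to be induced by hypoxia (CA9, ANGPTL4, NDRG1, VEGFA, ADM and BNIP3), 5 were called higher in hypoxic siCtrl PC3 cells by the limits given below. VEGFA was also higher there (238 and 205 RPKM against 138 and 170 in normoxia) but was not called. In hypoxic EV LNCaP cells 4 of 4 tested were called higher. The depth, estimated from the step that 1 fragment adds to low RPKM, was 14000000 to 46100000 fragments in PC3 and 33200000 to 60600000 in LNCaP, and 3 PC3 libraries were shallow: siRNA1 in hypoxia (14000000), siCtrl replicate 2 in hypoxia (15400000) and siCtrl replicate 1 in normoxia (16800000).

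Differences were fitted with limma on log2(RPKM + 0.1) over the 12214 genes (PC3) or 12284 genes (LNCaP) that reached 1 RPKM in 2 or more libraries of a line. A gene was called where the fold change was over 2 and the unadjusted P was under 0.05, the limits of the study, and Benjamini-Hochberg adjusted p are given beside. In PC3, 5 of the 8 factors passed the filter (ONECUT2, ONECUT3, HNF4G, FOXA2 and PROX1), ONECUT2 only through its level in normoxic siCtrl cells. In LNCaP, HNF4G and ONECUT2 passed, ONECUT2 only with its EV libraries, and the other 6 factors are described by their levels and by a fit without the filter.

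Within the ONECUT family in PC3, ONECUT2, the silenced gene, was lower in siOC2 libraries, and ONECUT3 was lower beside it. ONECUT2 had 1.77 and 1.16 RPKM in normoxic siCtrl libraries, 0.276 (siRNA1) and 0.204 (siRNA2) in normoxic siOC2 libraries, 0.648 and 0.550 in hypoxic siCtrl libraries, and 0.125 and 0.214 in hypoxic siOC2 libraries. All 4 siOC2 libraries were below all 4 siCtrl libraries, which held for 1 of the 8 factors and for 3.89% of 18112 genes with a value above 0. On the log2 scale ONECUT2 fell by 2.18 in normoxia (SE 0.65, limma adjusted p = 0.332). It had entered the test through the group in which it is high, so its call is a description, and of the other 4 factors tested 0 were called in this contrast, which called 5.21% of genes. In hypoxia its difference was -1.39 (SE 0.65, limma adjusted p = 0.439) and was not called, but it was called without the filter (-1.39, limma adjusted p = 0.271) and with upper-quartile scaling (-1.36, limma adjusted p = 0.272). Without normoxic siCtrl replicate 1, a shallow library, the difference in normoxia was -1.90 and not called, and without siRNA2 in hypoxia the difference there was -1.63 and called. At a pseudocount of 1 the normoxic difference was -0.98, a fold below 2.

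Low oxygen itself went with less ONECUT2 in control PC3 cells, without being called. The group means were 1.47 ± 0.435 RPKM (SD, n = 2) in normoxia and 0.599 ± 0.0696 (SD, n = 2) in hypoxia, which do not overlap, with a log2 difference of -1.14 (SE 0.65, limma adjusted p = 0.791). This difference was called without the filter (limma adjusted p = 0.595) and in a fit of the groups compared only (limma adjusted p = 0.0778). ONECUT2 had entered the filtered fits through the normoxic siCtrl libraries, the higher group of this contrast. Its difference is therefore a description, in a contrast that called 3.86% of genes. By siRNA, the log2 difference of ONECUT2 from the mean of the siCtrl libraries was -2.03 for siRNA1 and -2.34 for siRNA2 in normoxia, and -1.63 and -1.15 in hypoxia.

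ONECUT3 had 1.29 and 1.5 RPKM in normoxic siCtrl libraries and 0.625 (siRNA1) and 0.742 (siRNA2) in normoxic siOC2 libraries. In hypoxia it had 2.65 and 1.82 RPKM in siCtrl and 1.03 and 1.42 in siOC2 libraries. At each oxygen level both siOC2 libraries were below both siCtrl libraries, and each silenced or control group was higher in hypoxia than in normoxia, so that the hypoxic siOC2 libraries overlapped the normoxic siCtrl libraries. ONECUT3 was not called: the silencing difference was -0.94 (SE 0.44, limma adjusted p = 0.58) in normoxia and -0.81 (SE 0.44, limma adjusted p = 0.499) in hypoxia on the log2 scale. With upper-quartile scaling the difference in normoxia was -1.02 (limma adjusted p = 0.293) and called. The difference between hypoxia and normoxia was 0.62 in siCtrl and 0.74 in siOC2 cells. Per siRNA, ONECUT3 was 1.52-fold to 2.06-fold lower than the mean of the siCtrl libraries in the same oxygen. The target sequences that the paper lists for its ONECUT2 siRNAs overlap each other, so the siRNAs are not independent in sequence. Whether they also act on ONECUT3 RNA was not tested.

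ONECUT1 in PC3 was at a low level and varied between libraries of a group. It had 0.378 and 0.386 RPKM in normoxic siCtrl libraries, 0.267 and 0.151 in normoxic siOC2 libraries, 0.535 and 0.0905 in hypoxic siCtrl libraries and 0.0378 and 0.282 in hypoxic siOC2 libraries. The hypoxic groups overlap, and the lowest values there, 0.0905 and 0.0378 RPKM, belong to the shallow libraries. In a fit of all genes above 0, its silencing difference was -0.67 in normoxia (SE 0.71, limma adjusted p = 0.847) and -0.60 in hypoxia (SE 0.71, limma adjusted p = 0.817).

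In LNCaP, ONECUT2 itself differed more between EV libraries of the same group than between the oxygen levels. It had 2.89 and 7.86 RPKM in normoxia and 11.5 and 3.09 in hypoxia, and the log2 difference between hypoxia and normoxia was 0.32 (SE 0.67, limma adjusted p = 0.751). Without normoxic replicate 1 the difference was -0.39, and without hypoxic replicate 1 it was -0.62.

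In LNCaP, ONECUT3 was nearly absent from EV cells and present at a low level in each OC2 library. It had 0.00245 and 0.00406 RPKM in normoxic EV libraries, 0.0556 and 0.0208 in normoxic OC2 libraries, 0.00254 and 0 in hypoxic EV libraries, and 0.129 and 0.162 in hypoxic OC2 libraries. The low values fall on whole multiples of 1 step (largest deviation 0.01 of a step). This step was taken as about what 1 fragment adds and was not checked against transcript length. The EV libraries held 1 and 2 steps in normoxia and 1 and 0 in hypoxia, against 15 and 8, and 56 and 49, in the OC2 libraries. Per depth, the OC2 libraries held 10.5 times as much (95% exact interval 3.19 to 54.8) in normoxia and 120 times as much (21 to 4780) in hypoxia, where the comparison rests on 1 step in EV cells. These intervals cover counting error only, and steps taken from fragments copied in PCR are not independent molecules.

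The difference was largest under hypoxic conditions. In the fit of all 18312 genes above 0, the OC2 difference of ONECUT3 was 0.41 in normoxia (SE 0.15, limma adjusted p = 0.195), not called, and 1.28 in hypoxia (SE 0.15, limma adjusted p = 0.0107), called. These values are on the log2(RPKM + 0.1) scale and understate the change of a gene this low. Between hypoxic and normoxic OC2 cells ONECUT3 differed by 0.84 (limma adjusted p = 0.0185), a fold below 2, and the difference between its OC2 effects in hypoxia and in normoxia was 0.87 (limma adjusted p = 0.181), also not called. Its coding sequence shares the 32-base run printed above with ONECUT2, the overexpressed gene, and whether reads of the vector entered its value was not tested.

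ONECUT1 in LNCaP had 0.211 and 0.0787 RPKM in normoxic EV, 0.215 and 0.302 in normoxic OC2, 0.0553 and 0.0480 in hypoxic EV, and 0.0992 and 0.0854 in hypoxic OC2 libraries. Each hypoxic OC2 library was above each hypoxic EV library, and the normoxic groups were separated by little. In the fit without the filter its OC2 difference was 0.59 in normoxia (SE 0.28, limma adjusted p = 0.301) and 0.34 in hypoxia (SE 0.28, limma adjusted p = 0.511).

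HNF4G, the paralog of HNF4A, was lower in hypoxia in both lines. In LNCaP it had 2.81 and 3.05 RPKM in normoxic EV libraries, 2.62 and 2.35 in normoxic OC2 libraries, 0.505 and 0.857 in hypoxic EV libraries and 1.80 and 1.05 in hypoxic OC2 libraries. Each hypoxic library was below each normoxic library, the case for 1 of the 7 factors with a value in all 8 libraries and for 9.32% of 18312 genes. In EV cells HNF4G fell by 1.99 on the log2 scale in hypoxia, 3.98-fold (SE 0.30, limma adjusted p = 0.0023). It was called, as 1 of the 2 factors tested (the other was ONECUT2), in a contrast that called 7.95% of genes.

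With OC2 the hypoxic level was higher. HNF4G had 0.681 ± 0.249 RPKM (SD, n = 2) in hypoxic EV and 1.43 ± 0.536 (SD, n = 2) in hypoxic OC2 libraries, a log2 difference of 0.96 (SE 0.30, limma adjusted p = 0.078), a fold of 1.94 and so short of the call in a contrast that called 4.47% of genes. In normoxia the OC2 difference was -0.23 (SE 0.30, limma adjusted p = 0.685), where 3.29% of genes were called and HNF4G, the only factor tested, was not. Between hypoxic and normoxic OC2 cells it was -0.81 (SE 0.30, limma adjusted p = 0.0819), where 6.84% of genes were called. The difference between the OC2 effects at the 2 oxygen levels was 1.19 (SE 0.43, limma adjusted p = 0.231), called in a contrast that called 3.7% of genes. These calls turn on single libraries: the OC2 difference in hypoxia passed without EV replicate 2 (1.29) or OC2 replicate 2 (1.32) and was smaller without EV replicate 1 (0.63) or OC2 replicate 1 (0.59), the hypoxia difference in OC2 cells passed without hypoxic OC2 replicate 1 (-1.17) and was smaller without hypoxic OC2 replicate 2 (-0.44), and the difference between the effects lost its call without any of 4 libraries (0.82 to 1.13) or at a pseudocount of 1 (0.69).

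In PC3, HNF4G had 6.32 and 7.75 RPKM in normoxic siCtrl libraries, 6.83 (siRNA1) and 4.35 (siRNA2) in normoxic siOC2 libraries, 3.91 and 4.56 in hypoxic siCtrl libraries, and 1.72 (siRNA1) and 2.28 (siRNA2) in hypoxic siOC2 libraries. The hypoxic siOC2 libraries were the lowest, with both siRNAs. Over all 8 libraries the hypoxic and normoxic ones overlap between 4.35 and 4.56 RPKM, so 0 of the 8 factors were lower in each hypoxic PC3 library, against 5.24% of genes. In siOC2 cells HNF4G fell by 1.42 in hypoxia on the log2 scale (SE 0.34, limma adjusted p = 0.647), 1 of 5 factors tested, where 3.46% of genes were called. In siCtrl cells the difference was -0.72 (SE 0.34, limma adjusted p = 0.723), where 3.86% of genes were called and 0 factors.

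Silencing itself went with less HNF4G in hypoxia. HNF4G fell by 1.05 on the log2 scale (SE 0.34, limma adjusted p = 0.266), in a contrast that called 7.5% of genes and 2 of 5 factors, the other being PROX1. In normoxia the difference was -0.35 (SE 0.34, limma adjusted p = 0.833), with siRNA1 at -0.03 and siRNA2 at -0.67. The difference between the silencing effects in hypoxia and normoxia was -0.70 (SE 0.49, limma adjusted p = 1), and in that contrast 0 factors and 0.942% of genes were called. The call for silencing in hypoxia was lost without siCtrl replicate 2 (-0.95), without siRNA1 (-0.86), with upper-quartile scaling (-0.99) and at a pseudocount of 1 (-0.81).

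**Figure D2:**
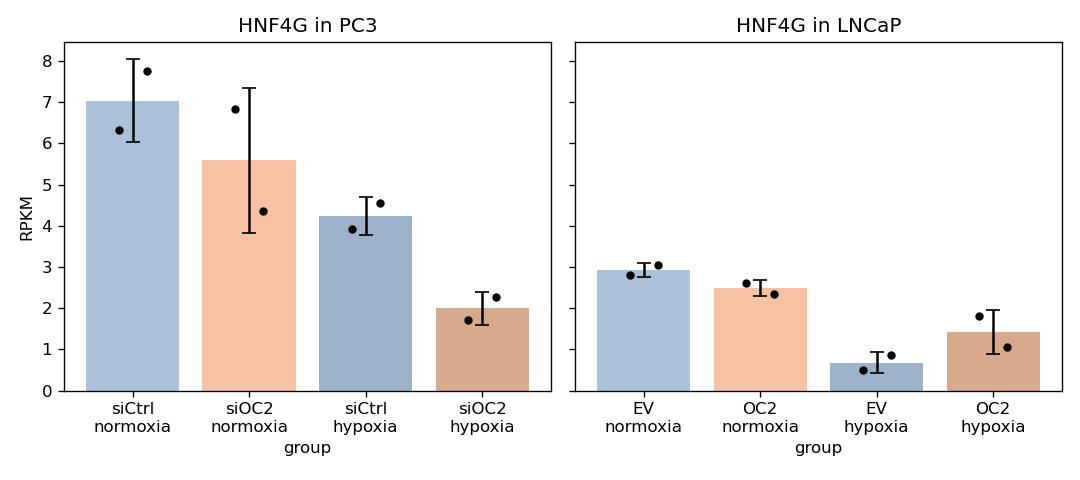
RPKM of HNF4G in PC3 (left) and LNCaP (right) by group, with bars for the mean, error bars for the SD of 2 libraries and points for the libraries. In LNCaP each hypoxic library (0.505 to 1.80 RPKM) lies below each normoxic one (2.35 to 3.05 RPKM), and in PC3 the hypoxic siOC2 libraries (1.72 and 2.28 RPKM) are the lowest.

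HNF4A, the master regulator of hepatocyte identity, was scarce in both lines. In PC3 it had 0.0523 and 0.0553 RPKM in normoxic siCtrl, 0.0483 and 0.0721 in normoxic siOC2, 0.0225 and 0 in hypoxic siCtrl, and 0 and 0.0856 in hypoxic siOC2 libraries. Its groups overlap, and the libraries at 0 were 2 of the 3 shallow ones, while the other had 0.0523 RPKM. In LNCaP it had 0.00636 and 0.0157 RPKM in normoxic EV, 0.0347 and 0.0212 in normoxic OC2, 0.0182 and 0.00578 in hypoxic EV, and 0.0656 and 0.0514 in hypoxic OC2 libraries.

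Each OC2 library of LNCaP thus held more HNF4A than each EV library, by a small margin. The closest values were 0.0212 RPKM (normoxic OC2 replicate 2) and 0.0182 RPKM (hypoxic EV replicate 1). The counting error of HNF4A was not estimated. In the fit without the filter the difference was 0.20 in normoxia (SE 0.11, limma adjusted p = 0.378) and 0.50 in hypoxia (SE 0.11, limma adjusted p = 0.0565), neither with a fold over 2. In hypoxia the group mean was 0.012 ± 0.00876 RPKM (SD, n = 2) with EV and 0.0585 ± 0.0101 (SD, n = 2) with OC2.

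HNF4A is a textbook target of HNF6 and related factors, so its promoters are shown with the core of the ONECUT site, ATTGAT on either strand, in capitals. RefSeq promoter sequences (250 bases before to 50 after a start, GRCh38.p14) were given for 4 of the 8 factors (ONECUT1, ONECUT2, FOXA3 and HNF4A), and 6.26% of 35116 promoters hold these letters. The upstream HNF4A promoter lies at chr20:44355449-44355748 and the downstream one at chr20:44400989-44401288, both on the plus strand, and each holds 1 match.
HNF4A upstream promoter: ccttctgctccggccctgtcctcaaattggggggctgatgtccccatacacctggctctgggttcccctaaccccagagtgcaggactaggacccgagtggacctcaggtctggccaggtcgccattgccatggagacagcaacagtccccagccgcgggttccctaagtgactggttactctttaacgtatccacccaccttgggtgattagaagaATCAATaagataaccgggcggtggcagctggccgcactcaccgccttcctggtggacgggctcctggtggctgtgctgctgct
HNF4A downstream promoter: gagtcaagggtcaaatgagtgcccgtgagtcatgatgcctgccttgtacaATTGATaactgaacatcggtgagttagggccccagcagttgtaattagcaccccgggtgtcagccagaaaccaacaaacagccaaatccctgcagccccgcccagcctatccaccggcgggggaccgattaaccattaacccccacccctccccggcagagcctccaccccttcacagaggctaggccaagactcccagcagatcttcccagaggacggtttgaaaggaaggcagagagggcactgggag
The promoters of ONECUT1, ONECUT2 and FOXA3 hold 0 matches in this window. A match is a run of letters and was not tested as a binding site, and the RPKM do not tell from which promoter HNF4A was read.

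FOXA3, a pioneer factor of hepatocytes, rose in LNCaP with OC2 at both oxygen levels. It had 0.0335 and 0.00925 RPKM in normoxic EV libraries, 0.152 and 0.201 in normoxic OC2 libraries, 0.0116 and 0.0203 in hypoxic EV libraries, and 0.273 and 0.242 in hypoxic OC2 libraries. In steps found in the same way (largest deviation 0.02 of a step) these were 3 and 1, 9 and 17, 1 and 2, and 26 and 16. Each OC2 library was above each EV library, and per depth the OC2 libraries held 8.94 times as much (95% exact interval 3.1 to 35.2) in normoxia and 16 times as much (5.11 to 80.6) in hypoxia.

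In the fit without the filter FOXA3 rose by 1.19 on the log2 scale in normoxia (SE 0.16, limma adjusted p = 0.0234) and by 1.62 in hypoxia (SE 0.16, limma adjusted p = 0.00683). FOXA3 was the only one of 7 factors with values called higher in normoxia, where 3.71% of genes were called higher, and FOXA3 and ONECUT3 were the 2 called higher in hypoxia, where 4.78% were. ONECUT3, HNF4A and FOXA3 were the 3 of 7 factors with each OC2 library above each EV library (HNF4A by a small margin), against 6.72% of 18312 genes. The level stayed below 0.3 RPKM for each of these 3 genes.

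**Figure D3:**
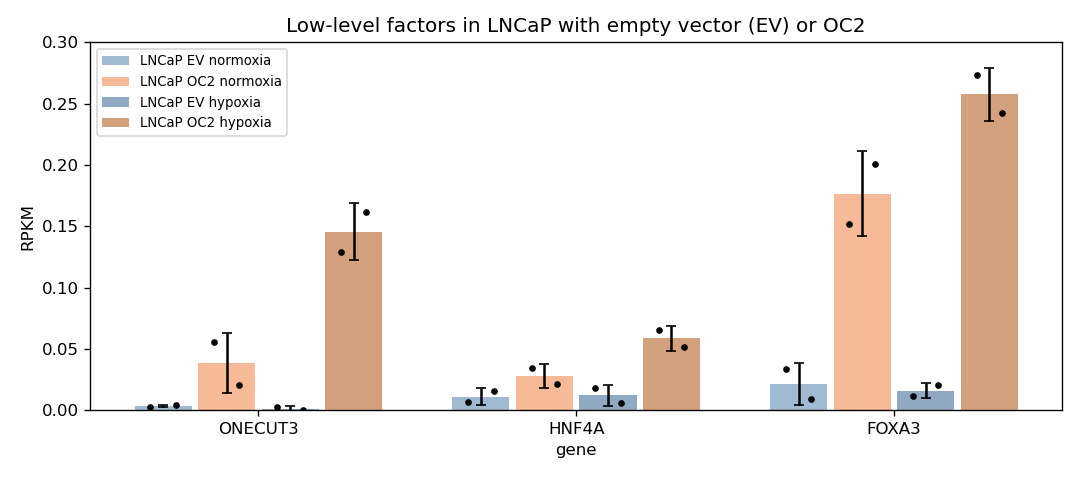
RPKM of ONECUT3, HNF4A and FOXA3 in LNCaP by group, with bars for the mean, error bars for the SD of 2 libraries and points for the libraries. For each gene both OC2 groups lie above both EV groups, and the hypoxic OC2 group has the highest mean (0.146, 0.0585 and 0.257 RPKM).

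FOXA3 in PC3 showed no such order. It had 0.375 and 0.0417 RPKM in normoxic siCtrl, 0.204 and 0.409 in normoxic siOC2, 0.0143 and 0.195 in hypoxic siCtrl, and 0 and 0.419 in hypoxic siOC2 libraries. The groups overlap at both oxygen levels, and in the fit without the filter the silencing difference was 0.60 in normoxia and 0.31 in hypoxia with an SE of 0.98 for each (limma adjusted p = 0.918 and 0.969).

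FOXA2, a pioneer factor of definitive endoderm that is also known from neuroendocrine prostate tumours, was among the most abundant of these factors in PC3 and close to absent from LNCaP. In PC3 it had 2.81 and 3.22 RPKM in normoxic siCtrl libraries, 3.73 (siRNA1) and 6.24 (siRNA2) in normoxic siOC2 libraries, 3.34 and 2.69 in hypoxic siCtrl libraries and 3.61 (siRNA1) and 9.57 (siRNA2) in hypoxic siOC2 libraries. Each siOC2 library was above each siCtrl library, and siRNA2 gave the higher value at both oxygen levels.

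FOXA2 was not called with the main settings. Its silencing difference was 0.67 (SE 0.48, limma adjusted p = 0.737) in normoxia and 0.95 (SE 0.48, limma adjusted p = 0.473) in hypoxia on the log2 scale. With upper-quartile scaling FOXA2 was called in hypoxia (1.01, limma adjusted p = 0.27). Relative to the mean of the siCtrl libraries it was 1.23-fold and 1.2-fold higher with siRNA1, and 2.04-fold and 3.12-fold higher with siRNA2, in normoxia and hypoxia. Without siRNA1 the difference in hypoxia was 1.64 and called. Its response to hypoxia was -0.01 in siCtrl and 0.28 in siOC2 cells, with an SE of 0.48 for each.

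In LNCaP, FOXA2 had 0.00906 and 0 RPKM in normoxic EV libraries, 0 and 0.0192 in normoxic OC2 libraries, 0 and 0 in hypoxic EV libraries, and 0 and 0.0183 in hypoxic OC2 libraries. The highest value stood for 4 steps, and how much of a fragment a FOXA2 step stands for was not checked. A difference was not detectable at this depth.

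PROX1 had 1.12 and 1.24 RPKM in normoxic siCtrl PC3 libraries, 1.78 (siRNA1) and 2.75 (siRNA2) in normoxic siOC2 libraries, 0.893 and 0.859 in hypoxic siCtrl libraries, and 4.07 (siRNA1) and 1.52 (siRNA2) in hypoxic siOC2 libraries. Each siOC2 library was above each siCtrl library, as for FOXA2, so that 2 of the 8 factors were higher without overlap, against 7.11% of 18112 genes. In hypoxia PROX1 rose by 1.41 on the log2 scale (SE 0.52, limma adjusted p = 0.321), and in normoxia the difference was 0.86 (SE 0.52, limma adjusted p = 0.681). The highest value, with siRNA1 in hypoxia, belongs to the shallowest library (14000000 fragments), and without it the difference in hypoxia was 0.73 (limma adjusted p = 0.396) and not called. The call was also lost without siCtrl replicate 1 (1.44) or 2 (1.39) in hypoxia, in a fit of the groups compared only (1.41), and at a pseudocount of 1 (0.93).

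In LNCaP, PROX1 had 0.105 and 0.147 RPKM in normoxic EV, 0.0734 and 0.191 in normoxic OC2, 0.0577 and 0.0316 in hypoxic EV, and 0.149 and 0.15 in hypoxic OC2 libraries. The normoxic groups overlap, while both hypoxic OC2 libraries were above both hypoxic EV libraries. In the fit without the filter the OC2 difference in hypoxia was 0.79 (SE 0.26, limma adjusted p = 0.134), with a fold below 2, and in normoxia it was -0.0043 (SE 0.26).

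**Figure D4:**
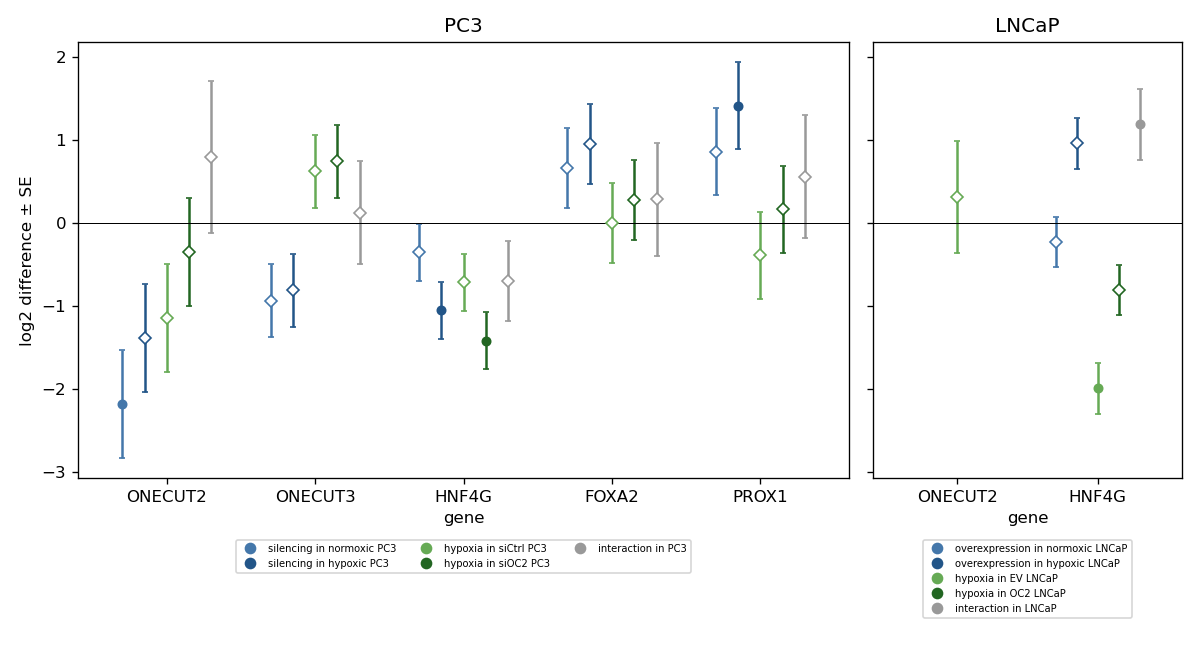
Log2 difference ± SE from limma on log2(RPKM + 0.1) for the factors that passed the filter in PC3 (left) and LNCaP (right), by contrast (silencing is siOC2 minus siCtrl, overexpression is OC2 minus EV); filled circles are called and hollow diamonds are not. ONECUT2 fell by 2.18 with silencing in normoxic PC3, and HNF4G fell by 1.99 with hypoxia in EV LNCaP, the largest differences plotted.

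The other endodermal factors and a set of liver and gut genes (called targets below) were read from lists of 26 and 39 genes. Whether the factors control these genes in the lines was not tested. In PC3, 11 of the 26 factors and 5 of the 39 targets passed the filter. With silencing, 1 of the 11 factors fell and 0 rose, at either oxygen level, where 5.21% (normoxia) and 7.5% (hypoxia) of all genes were called, and that gene was FOXA1, a pioneer factor of endoderm and of the luminal prostate. FOXA1 had 23.8 and 28.7 RPKM in normoxic siCtrl, 10.9 and 12.7 in normoxic siOC2, 19.8 and 17.5 in hypoxic siCtrl, and 6.16 and 12.1 in hypoxic siOC2 libraries.

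Each siOC2 library was below each siCtrl library, and FOXA1 fell by 1.14 in normoxia (SE 0.35, limma adjusted p = 0.347) and by 1.10 in hypoxia (SE 0.35, limma adjusted p = 0.255). The median log2 difference of the 11 factors was 0.50 in normoxia and -0.03 in hypoxia, beside 0.13 and -0.03 over all genes tested. Of the 5 targets, 1 fell and 0 rose in each of these contrasts, which was ANPEP, a peptidase of the gut brush border, by 1.60 (limma adjusted p = 0.261) and 1.95 (limma adjusted p = 0.112). With hypoxia 0 of the 11 factors and 0 of the 5 targets were called in siCtrl or siOC2 cells, where 3.86% and 3.46% of genes were.

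In LNCaP, 12 of the 26 factors and 9 of the 39 targets passed the filter. CREB3L3, a membrane-bound transcription factor of liver and gut, had 0.00826 and 0.0103 RPKM in normoxic EV libraries and 2.07 and 1.97 in normoxic OC2 libraries, 0 and 0 in hypoxic EV libraries and 0.556 and 0.478 in hypoxic OC2 libraries. Each OC2 library was above each EV library. CREB3L3 passed the filter only through the normoxic OC2 libraries, and its EV levels lie far below the pseudocount, so its fitted difference is not given and its calls are a description. Of the other 11 factors, 0 were called in normoxia, where 3.29% of genes were, and 1 in hypoxia, where 4.47% were, which was PPARGC1A, a coactivator of energy metabolism (1.37, limma adjusted p = 0.0518). Of the 9 targets, TFF3, a mucosal trefoil peptide, fell by 2.12 in normoxia (limma adjusted p = 0.0889). TFF3 had 1.06 and 5.14 RPKM in normoxic EV libraries, which lie far apart, and 0.556 and 0.388 in normoxic OC2 libraries. SPINK1, a trypsin inhibitor, had 0.677 and 0.649 RPKM in hypoxic EV and 1.27 and 1.76 in hypoxic OC2 libraries. SPINK1 passed the filter only through the hypoxic OC2 libraries, so its called difference there (1.07, limma adjusted p = 0.125) is a description.

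Hypoxia changed 5 of these genes in EV LNCaP cells, in a contrast that called 7.95% of all genes. SOX9, a factor of ductal progenitors, rose by 1.69 (limma adjusted p = 2.76e-04) and PPARGC1A fell by 1.83 (limma adjusted p = 0.00801), 1 of 12 factors each way. Of the 9 targets, CYP3A5, a drug-metabolising enzyme, rose by 1.82 (limma adjusted p = 5.3e-04), TTR, a plasma carrier of thyroxine, rose by 1.30 (limma adjusted p = 0.00136), and UGT2B17, an androgen-conjugating enzyme, fell by 1.10 (limma adjusted p = 4.14e-04). In OC2 cells 1 factor rose (SOX9) and 1 fell (CREB3L3), and 4 of the 9 targets rose and 0 fell, where 6.84% of genes were called. CREB3L3 had entered the test through the normoxic OC2 libraries, and SPINK1, among these 4 targets, through the hypoxic OC2 libraries. Their calls are therefore a description. The medians of the 12 factors and of the 9 targets in EV cells were 0.12 and -0.24, beside 0.02 over all genes tested.

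For each factor that passed the filter, the 3 genes with the most similar pattern over the 8 libraries of a line were found by Pearson's r on the log2 scale, as a description. For HNF4G in LNCaP they were UGT2B28 (r = 0.982), CCL20 (0.98) and RABEPK (0.978), and in PC3 they were CCDC167 (0.99), SQRDL (0.988) and TMEM101 (0.987). UGT2B28, an androgen-conjugating enzyme like UGT2B17, had 7.93 and 7.43 RPKM in normoxic EV and 3.11 and 4.18 in hypoxic EV libraries. FOXA2 in PC3 was most like CDH2, the N-cadherin gene (0.994), TRIB1 (0.991) and MSANTD2 (0.983). CDH2 was highest, as FOXA2 was, with siRNA2 (32.8 RPKM in normoxia and 42.6 in hypoxia, against 15.8 to 19.4 in siCtrl libraries).

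The nearest genes to ONECUT2 in PC3 were LRIG3 (0.963), ATP10D (0.962) and NAA15 (0.961), to ONECUT3 they were ROCK2 (0.981), RBM3 (0.979) and NDST1 (0.977), and to PROX1 they were REEP1 (0.974), EGLN2 (0.966) and SNN (0.96). These values share libraries, siRNAs and depth, and were picked from all genes tested.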

How the data were processed

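The 16 RNA-Seq libraries of PC3 and LNCaP cells were grouped by their labels. The authors prepared TruSeq Stranded mRNA libraries, aligned reads to hg19 with STAR 2.4.2a and deposited RPKM per gene from Cufflinks 2.1.1 with a GENCODE annotation. Genes with overlaps or close paralogs carry the uncertainty of that counting. Samples from ChIP-Seq (12) were not used here.

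The RPKM were used without further scaling, as log2(RPKM + 0.1), in limma 3.58.1 (R 4.3.3) with the 4 groups of a line, a mean-variance trend and no block, over genes that reached 1 RPKM in 2 or more libraries. Tests were 2-sided, with Benjamini-Hochberg adjustment over all genes of a contrast. ONECUT2 was left missing in the OC2 libraries. Depth was estimated from 1290 genes with 1 transcript, as the RPKM times length (less an assumed 200 bases) of 1 fragment. The scripts were tested on simulated data.

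Named are all 8 factors, the called genes of the lists (at most 3 per list and contrast), 6 hypoxia genes and the 3 genes most like each factor. The factors and lists were chosen with earlier results of these data known. The alternatives tried were pseudocounts of 1 and 0.01, no filter or 5 RPKM, upper-quartile scaling, only the groups compared, a replicate block, exact 0 as missing, adjusted p under 0.05 and leaving out each library. The crossed block was chosen after seeing the data. Part of the LNCaP marker list is not reported here.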

Additional observations from a re-analysis of the deposited data

Results flagged for a closer look

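The effect of OC2 on HNF4G in LNCaP differed between hypoxia and normoxia by 1.19 on the log2 scale (SE 0.43, limma adjusted p = 0.231 by the interaction term). HNF4G had 0.505 and 0.857 RPKM with EV and 1.80 and 1.05 RPKM with OC2 in hypoxia, so both hypoxic OC2 libraries were higher, and 2.81 and 3.05 against 2.62 and 2.35 RPKM in normoxia, where both OC2 libraries were lower. The call was lost without any of 4 libraries in turn (normoxic EV replicate 2, normoxic OC2 replicate 2, hypoxic EV replicate 1 or hypoxic OC2 replicate 1), where the difference was 1.13, 1.11, 0.86 and 0.82. With groups of 2, no test for a library that stands apart was possible.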

How the results depend on the processing

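Of 426 values for single factors under alternatives, 378 kept their direction and side of the threshold, 21 lost a call, 13 gained a call and 14 changed sign. The number of factors called stayed within 1.5 times in 111 of 141 cases. At a pseudocount of 1, the calls fell to 0 for silencing in normoxic and hypoxic PC3 and for the interaction in LNCaP. At 5 RPKM they were 0 for silencing in normoxic PC3, hypoxia in EV LNCaP and the LNCaP interaction, and 1 for silencing in hypoxic PC3, because that filter removed the factors called before (ONECUT2 and PROX1 in PC3, HNF4G in LNCaP), which were not tested there. Upper-quartile scaling gave 2 for silencing in normoxic PC3 (ONECUT3 added) and 3 for silencing in hypoxic PC3 (FOXA2, ONECUT2 and PROX1). It gave 1 for OC2 in hypoxic LNCaP, as did a pseudocount of 0.01. No filter also gave 3 for silencing in hypoxic PC3, but these were HNF4G, ONECUT2 and PROX1. Without the filter, calls were 1 for hypoxia in siCtrl PC3, and 1 and 2 for OC2 in normoxic and hypoxic LNCaP. With only the groups compared they were 1 for silencing in hypoxic PC3 and 1 for hypoxia in siCtrl PC3. At an adjusted p under 0.05, 0 remained in both silencing contrasts, in hypoxia of siOC2 PC3 and in the LNCaP interaction.

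Leaving out each library gave 0 to 1 calls for silencing in normoxic PC3, 0 to 3 for silencing in hypoxic PC3, 0 to 1 for OC2 in hypoxic LNCaP, 0 to 1 for hypoxia in OC2 LNCaP and 0 to 1 for the LNCaP interaction. A lone library left in a group was taken to vary like the other groups. Signs changed within these ranges, over the libraries left out: FOXA2 with hypoxia (-0.16 to 0.15 in siCtrl and -0.41 to 0.97 in siOC2) and its interaction (-0.41 to 0.98), PROX1 with hypoxia in siOC2 (-0.52 to 0.85) and its interaction (-0.13 to 1.24), the ONECUT3 interaction (-0.13 to 0.38, and -0.026 at a pseudocount of 1) and ONECUT2 with hypoxia in EV LNCaP (-0.62 to 1.25). The cause was not tested. The 6 factors below 1 RPKM in LNCaP were fitted only without the filter, so their values have no other alternatives.

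Replicate numbers share only a number between groups: correlations of deviations ran from -0.186 to 0.275, apart from 0.618 between siOC2 groups of the same siRNAs. With the replicate block the calls were 1 for silencing in normoxic PC3 and 2 in hypoxic PC3, as without it, and a crossed block gave 1 and 2. For hypoxia in siOC2 PC3 the libraries of an siRNA can be paired, which the main fit did not do. There the replicate block kept 1 call (HNF4G, -1.42, limma adjusted p = 0.534). Depth limits the genes below 1 RPKM.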

Other observations

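Among the other endodermal factors and targets in LNCaP, the effect of OC2 differed between oxygen levels for 3 of 12 factors and 2 of 9 targets, 4 of them higher in hypoxia, in a contrast that called 3.7% of all genes. These counts include CREB3L3, which passed the filter only through normoxic OC2 libraries, and SPINK1, which passed only through hypoxic OC2 libraries. Their calls are a description and cannot be set against that share. PPARGC1A had 1.65 and 1.17 RPKM in normoxic EV, 0.486 and 1.13 in normoxic OC2, 0.334 and 0.306 in hypoxic EV, and 1.09 and 0.888 in hypoxic OC2 libraries, so that the normoxic OC2 libraries were below and the hypoxic ones above the EV libraries (interaction 2.19, SE 0.53, limma adjusted p = 0.119). GATA6, a factor of endoderm and gut, had 1.93 and 1.95, 1.69 and 1.64, 1.46 and 1.21, and 2.45 and 2.37 RPKM in the same order (interaction 1.02, SE 0.26, limma adjusted p = 0.127). TFF3 (2.71, limma adjusted p = 0.199) and SPINK1 (1.87, limma adjusted p = 0.177) had the same direction. For TFF3 the normoxic EV libraries lie far apart, at 1.06 and 5.14 RPKM. CREB3L3 had the opposite direction, with a size that depends on the pseudocount since both hypoxic EV libraries are at 0, and is not given. None of these passed an adjusted p of 0.05.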
